A study of Mus musculus with 12 samples.

Results

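Apoa4, Fgf21 and the genes around the transcription factor CREBH were followed through mouse livers that had or had not been exposed to a liver carcinogen, in wild-type and CUGBP1 S302A knock-in mice. The set held 8 of the 31253 gene symbols listed: Apoa4 and Fgf21, Creb3l3, which encodes CREBH, and the lipoprotein genes Apoa5, Apoc2, Apoc3, Apob and Mttp. Apoa4 and Fgf21 were chosen by their measured levels, which were higher after the carcinogen in these libraries, so their treatment differences are described here and not tested. The other 6 genes were included as their regulator and related lipoprotein genes. All 8 passed the filter on low values, which kept 12120 genes, and none was left out.

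Liver RNA of male C57BL6 mice was sequenced in 4 groups of 3 libraries. The groups were untreated wild type (WT_Ctrl), wild type given diethylnitrosamine (WT_DEN), untreated CUGBP1 S302A knock-in (S302A_Ctrl) and knock-in given diethylnitrosamine (S302A_DEN). Diethylnitrosamine (DEN), which alkylates DNA once hepatocytes have activated it, was injected at 50 µg per g body weight in mice aged 3 weeks. Controls are labelled untreated, with no vehicle named, and mice of all groups were 33 to 41 weeks old at sacrifice. The S302A allele makes CUGBP1, a protein that binds RNA, with an alanine where the normal form has a serine, and the labels do not say whether the mice carried 1 or 2 copies. They also do not say whether a liver piece held tumour, what the feeding state was, or that each library came from a separate animal, so the p-values below measure only the spread between these samples.

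CREBH is a membrane-bound transcription factor of the endoplasmic reticulum in hepatocytes and enterocytes, which is cut free by proteases in the Golgi and then enters the nucleus. It is known as an activator of fasting and lipid-handling genes, among them Apoa4, Apoa5, Apoc2 and the hormone gene Fgf21. Transcript levels of Creb3l3 do not show how much of the protein has been cut. Apoa4, Apoa5, Apoc2 and Apoc3 encode small apolipoproteins that ride on triglyceride-rich particles, Apob encodes the particle's structural protein, and Mttp encodes the transfer protein that loads it with lipid.

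The start regions of Apoa4, Fgf21 and Apoa5 are shown because the first pair had the largest treatment differences of the set and Apoa5 lies in the same gene cluster as Apoa4. The sequences are RefSeq's, in build GRCm38.p6, 5′ to 3′ on the gene's strand, and end just before the first annotated transcription start. Both strands were searched for the amino acid response element TGATGNAAT, the cyclic AMP response letters TGACG and TGACGTCA, the stress element core TGACGTG, the boxes CCACG and CCAAT, the E-box CACGTG, the nuclear receptor letters AGGTCA, the DR1 element made of 2 AGGTCA runs with 1 base between, and the HNF4 element CAAAGTCCA. TGACGTCA and TGACGTG contain TGACG, and the DR1 element contains AGGTCA. Capitals mark bases that matched any of them.
Apoa4, chr9:46240594-46240695, plus strand: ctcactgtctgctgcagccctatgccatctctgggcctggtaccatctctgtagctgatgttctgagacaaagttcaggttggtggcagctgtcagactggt
Fgf21, chr7:45615491-45615740, minus strand: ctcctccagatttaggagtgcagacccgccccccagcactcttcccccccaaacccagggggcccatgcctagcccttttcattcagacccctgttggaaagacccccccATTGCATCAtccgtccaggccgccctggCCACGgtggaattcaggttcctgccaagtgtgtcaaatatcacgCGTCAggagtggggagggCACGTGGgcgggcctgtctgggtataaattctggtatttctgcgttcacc
Apoa5, chr9:46268358-46268607, plus strand: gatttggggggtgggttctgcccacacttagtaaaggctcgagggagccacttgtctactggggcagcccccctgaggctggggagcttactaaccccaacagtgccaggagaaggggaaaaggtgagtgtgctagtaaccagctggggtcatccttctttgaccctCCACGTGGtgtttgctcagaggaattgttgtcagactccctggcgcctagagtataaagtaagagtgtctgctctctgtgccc

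The Fgf21 window held 1 match to the amino acid response element, the kind of site that ATF4 binds, 140 bases before the start. The same element occurred in 0.816% of 32851 windows of this length before RefSeq starts. Fgf21 also held an E-box (6.02% of windows), the letters TGACG (17.8%) and 2 matches to CCACG (28.3%), of which 1 overlapped the E-box. The Apoa5 window held an E-box, the kind of site bound by the sugar-responsive factor ChREBP among others, flanked by CCACG on both strands. In the 102 bases before Apoa4 none of the searched letters occurred, which says nothing about what binds there. A match is a run of letters and was not shown by these data to be a bound site.

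Apoa4, which encodes an apolipoprotein of newly made triglyceride-rich particles, stood at 163, 191 and 112 TPM, a relative transcript level corrected for length, in WT_Ctrl replicates 1 to 3. The WT_DEN libraries had 2512, 2419 and 1901 TPM. Levels were 68.0, 135 and 164 TPM in the S302A_Ctrl libraries and 1337, 1486 and 619 TPM in those of S302A_DEN. Every DEN library stood above every untreated library in both genotypes, and all 3 WT_DEN libraries stood above all 3 S302A_DEN libraries. Apoa4 moved from a rank between 452 and 743 among the symbols of a library in WT_Ctrl to a rank between 48 and 59 in WT_DEN. In the knock-in the rank went from between 533 and 1103 to between 62 and 256.

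As a description without a test, the Apoa4 group mean was 14.6-fold higher after DEN in wild type and 9.36-fold higher in the knock-in. On the log2(TPM + 1) scale these differences were 3.89 ± 0.38 (SE, n = 3 per group) and 3.21 ± 0.38, the latter 3.61 without S302A_DEN replicate 3. The genotype difference after DEN, which had not been used to choose the gene, was -1.08 ± 0.38 on that scale and did not pass the test (limma adjusted p = 0.365 over all genes tested). Without S302A_DEN replicate 3, the lowest of its group, that difference was -0.68 (adjusted p = 0.244).

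Fgf21, which encodes a liver hormone released in fasting and under amino acid or mitochondrial stress, was close to the lowest value the files list. It stood at 1.35, 1.16 and 1 TPM in WT_Ctrl, where 1 is the floor of the files and means 1 or less. WT_DEN libraries had 17.4, 9.43 and 5.24 TPM. Untreated knock-in libraries had 1.54, 2.51 and 2.09 TPM and DEN-treated ones 13.3, 5.84 and 73.0 TPM. DEN and untreated libraries did not overlap in either genotype, whereas the DEN groups of the genotypes overlapped. The value of 73.0 TPM, in S302A_DEN replicate 3, was the highest of the 12.

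The Fgf21 difference after DEN was 2.29 ± 0.66 (SE, n = 3 per group) on the log2(TPM + 1) scale in wild type and 2.68 ± 0.66 in the knock-in, again as a description. Ratios of the TPM means were 9.14 and 15.0, and since the added 1 is close to the untreated levels the log2 scale understates the change. The genotype difference of Fgf21 after DEN was 0.87 ± 0.66 with all libraries (limma adjusted p = 0.846). It was -0.10 without S302A_DEN replicate 3 (adjusted p = 0.911), so this 1 library set its sign. Without that library the knock-in difference after DEN was 1.71 and the ratio of means 4.69, both below the wild-type values, so the order of the genotypes in Fgf21 rests on it as well.

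**Figure D1:**
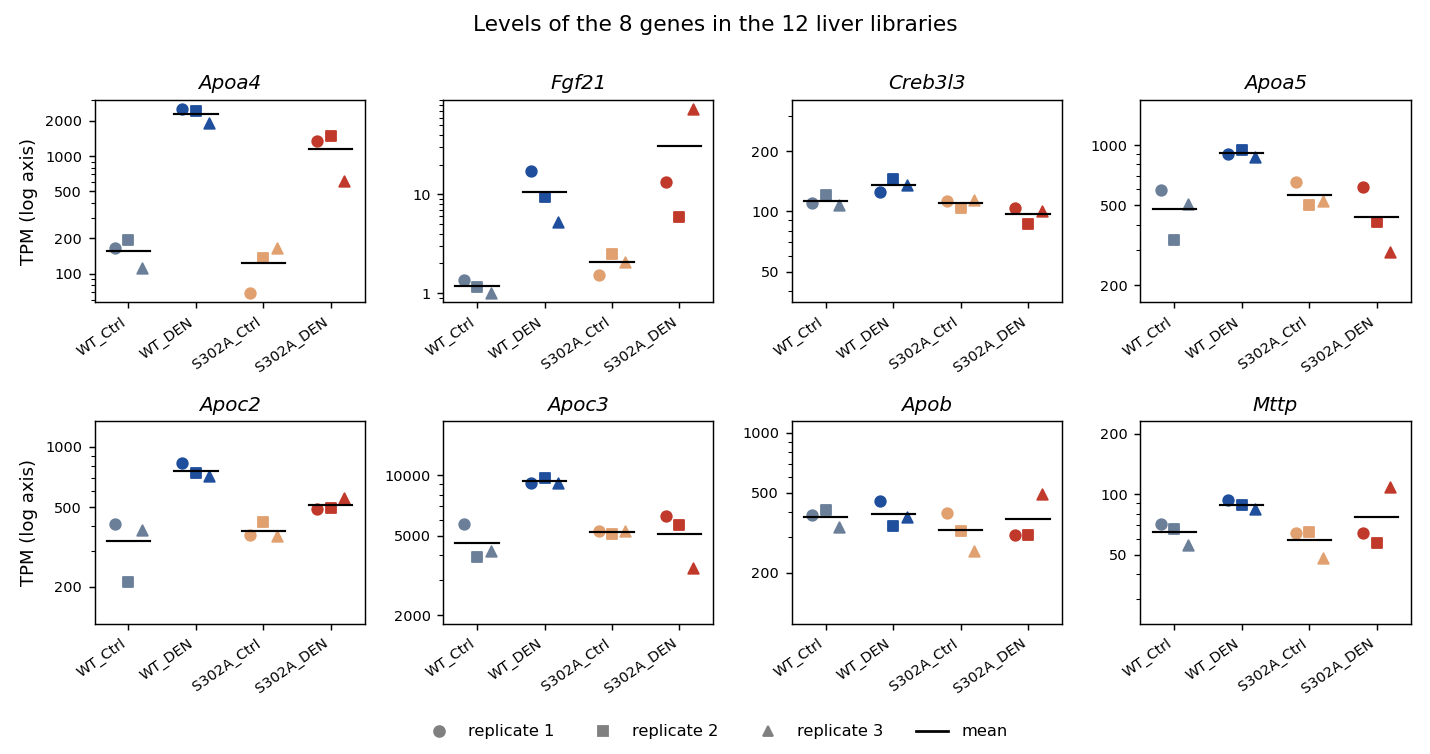
TPM of the 8 genes (log axis) in the 12 liver libraries, with the 4 groups along the horizontal axis, symbols for replicates 1 to 3 and a line at each group mean; Apoa4 and Fgf21 differ by the most between treatments, and S302A_DEN replicate 3 is the highest Fgf21 library at 73.0 TPM and the lowest Apoa4 library of its group at 619 TPM.

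Replicate 3 of S302A_DEN differed from its group in most genes. Of the 12120 genes tested, 10539 (87.0%) were higher in it than in both other S302A_DEN libraries, with a median log2 difference of 0.79. Among the 8 genes, Fgf21, Apoc2, Apob and Mttp followed that majority, Apoa4, Apoa5 and Apoc3 lay below both other libraries, and Creb3l3 lay between them. For Apoc2 (0.17) and Apob (0.67) the log2 difference was smaller than that median. After median-of-ratios scaling, which sets most genes level, only Fgf21 stood above both other libraries (43.2 against 13.6 and 7.12 scaled TPM). Every other gene of the set then lay below both. It also held the highest summed macrophage markers (389 TPM, against 77.1 to 189.8 TPM in the other groups) and adipocyte markers (97.2 TPM, against 14.4 to 23.5 TPM). Of the adipocyte markers 6 of 8 were at the floor in all 12 libraries, Adipoq and Plin1 among them. Most of the adipocyte sum in S302A_DEN replicate 3 was the single gene Fabp4, at 84.8 TPM. The part of these cells in any result was not tested.

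The liver label matched the hepatocyte markers. All 13 hepatocyte markers were measured, and their summed level ran from 70384 to 132421 TPM over the 12 libraries. Because Apoa4 is also a major product of the small intestine, enterocyte markers were read beside it. Of 12 enterocyte markers 9, among them the defining intestinal genes Cdx1, Cdx2, Sis and Lct, were at the floor in all 12 libraries. The summed enterocyte level still ran from 139 to 246 TPM in WT_DEN, against 90.1 to 117 TPM in WT_Ctrl. Most of it was the fatty acid binding protein gene Fabp2, at 89.5 TPM on average in WT_Ctrl and 171 TPM in WT_DEN, which did not pass the test (0.89, limma adjusted p = 0.452). All 7 striated muscle markers and 8 of 10 exocrine pancreas markers were at the floor throughout. Hepatocyte marker sums were higher in WT_DEN (118778 to 132421 TPM) than in WT_Ctrl (70384 to 102329 TPM), and in bulk liver a larger share of a cell type and more RNA per cell cannot be told apart. The part of hepatocyte content in the differences between wild-type groups was not tested.

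Creb3l3, the CREBH gene itself, stayed between 86.9 and 145 TPM in the 12 libraries. Wild-type libraries had 110.0, 121 and 107 TPM without DEN and 126, 145 and 136 TPM with it. Knock-in libraries had 113, 103 and 114 TPM without DEN and 104, 86.9 and 100.4 TPM with it. The WT_DEN libraries were the 3 highest of the 12. Its difference after DEN was 0.27 ± 0.16 (SE, n = 3 per group) in wild type (limma adjusted p = 0.733) and -0.18 ± 0.16 in the knock-in (adjusted p = 0.523), on the log2(TPM + 1) scale. After DEN every knock-in library was below every wild-type one, at a difference of -0.48 ± 0.16 (adjusted p = 0.316). Without S302A_DEN replicate 3 that difference was -0.50 and passed (adjusted p = 0.0438), and with array quality weights it was -0.43 (adjusted p = 0.00790). These were the 2 of 22 alternatives in which it passed.

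The TPM of Apoa4 per TPM of Creb3l3 lay between 1.04 and 1.59 in WT_Ctrl and between 14.0 and 20.0 in WT_DEN. In the knock-in it went from between 0.603 and 1.44 to between 6.17 and 17.1. Fgf21 per Creb3l3 went from at most 0.0122 to at least 0.0386 in wild type, and from at most 0.0242 to at least 0.0672 in the knock-in. Neither ratio overlapped between treated and untreated libraries, which is a description, since Apoa4 and Fgf21 were chosen for their treatment differences.

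The list for maturation and turnover of CREBH also held related membrane-bound factors such as Creb3 and Atf6, and the stress genes Xbp1 and Ern1. Of these genes, 12 of 14 tested were higher after DEN in wild type, against 70.3% of all genes (median 0.32, all genes 0.13), and none passed. In the knock-in 13 of 14 were higher, against 79.3% of all genes (median 0.60, all genes 0.27). Without S302A_DEN replicate 3 these were 11 of 14 (median 0.35, all genes 0). Hspa5, the main chaperone of the endoplasmic reticulum, rose in the knock-in after DEN by 1.50 ± 0.29 (limma adjusted p = 0.0421). Untreated knock-in libraries had 206, 333 and 191 TPM and treated ones 667, 693 and 643 TPM, with no overlap, although the call was lost after median-of-ratios scaling (adjusted p = 0.0603). That call was lost in 9 of 22 alternatives. Among these were leaving out WT_Ctrl replicate 1 or 2 (0.0512 and 0.0562), S302A_Ctrl replicate 1 or 3 (0.202 and 0.178), WT_DEN replicate 2 (0.0708) or S302A_DEN replicate 1 (0.0829), each as adjusted p. Mbtps1, which encodes the first Golgi protease that cuts CREBH, had a difference of 0.36 after DEN in wild type and 0.26 in the knock-in, neither past the test, and the knock-in value was -0.048 without S302A_DEN replicate 3.

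In wild type the group means of Apoa5, Apoc2 and Apoc3 after DEN were 1.89, 2.26 and 2.04 times those without it, and in the knock-in 0.782, 1.34 and 0.978 times. Apoa5, an activator of lipolysis by lipoprotein lipase, had 599, 337 and 505 TPM in WT_Ctrl libraries and 907, 943 and 876 TPM in those of WT_DEN. Knock-in libraries had 655, 502 and 528 TPM without DEN and 615, 411 and 292 TPM with it. The WT_DEN libraries stood above all 9 others. The knock-in groups overlapped.

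Apoc2, the obligate cofactor of lipoprotein lipase, had 414, 211 and 386 TPM in WT_Ctrl libraries and 829.8, 736 and 715 TPM in those of WT_DEN. Without DEN the knock-in libraries had 363, 420.2 and 360.4 TPM, and with it 487, 496 and 553 TPM. DEN libraries stood above untreated ones in both genotypes, and the WT_DEN libraries above those of S302A_DEN.

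Apoc3, an inhibitor of lipolysis and of particle uptake, was the most abundant of the set per length of transcript. Wild-type livers had 5695, 3911 and 4178 TPM untreated and 9191, 9744 and 9132 TPM after DEN. Knock-in livers had 5297, 5099 and 5261 TPM untreated and 6228, 5622 and 3463 TPM after DEN. As with Apoa5, the WT_DEN libraries stood above all 9 others and the knock-in groups overlapped.

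Apob and Mttp, which build the particle, overlapped between most groups. Apob had 387, 413 and 336 TPM in untreated and 455, 341 and 377 TPM in treated wild type, and 396, 322 and 257 TPM in untreated and 308, 308 and 491 TPM in treated knock-in. Mttp had 70.8, 67.4 and 55.8 TPM in untreated and 94.0, 87.9 and 84.0 TPM in treated wild type, and 64.4, 64.9 and 47.9 TPM in untreated and 64.2, 56.8 and 109 TPM in treated knock-in. For Mttp the wild-type groups did not overlap, whereas the knock-in groups did, through replicates 1 and 2. Both genes were highest in S302A_DEN replicate 3.

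After DEN in wild type, 70.3% of all genes tested had a positive difference on the log2(TPM + 1) scale. So had all 6 genes open to a test, with a median of 0.71 against 0.13 over all genes. None passed limma's test after adjustment over all genes, where 16 genes (0.132%) did. Unadjusted p-values lay below 0.05 for 3 of the 6, against 8.26% of all genes. Between untreated and DEN-treated wild type 5 of the 6 did not overlap, all in the higher direction, against 21.7% of all genes. The differences were 1.23 ± 0.24 for Apoc2 (adjusted p = 0.0878), 1.05 ± 0.25 for Apoc3 (adjusted p = 0.208) and 0.96 ± 0.28 for Apoa5 (adjusted p = 0.279). They were 0.45 ± 0.24 for Mttp (adjusted p = 0.664) and 0.04 ± 0.23 for Apob (adjusted p = 0.992). Median-of-ratios scaling, which sets most genes level, moved the median of all genes from 0.13 to -0.02 here and from 0.27 to 0.01 in the knock-in, so differences are read against those medians.

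S302A_DEN replicate 3 enters that fit through the shared estimate of spread, although it is not part of the comparison. Without it Apoc2 passed (adjusted p = 0.0246), as did Apoc3 (adjusted p = 0.0185), with the same differences, while 2.17% of all genes passed. With array quality weights, which gave this library a weight of 0.0498, Apoa5, Apoc2, Apoc3 and Mttp passed, 4 of the 6, against 17% of all genes.

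After DEN in the knock-in, 79.3% of all genes had a positive difference. Of the 6, 3 had a positive one and 3 a negative one, with a median of 0.05 against 0.27 over all genes. None passed limma's test, where 75 genes (0.619%) did, and none had an unadjusted p below 0.05, against 16.4% of all genes. Apoc2 alone did not overlap, in the higher direction, against 15.8% of all genes. Its difference was 0.43 ± 0.24 (adjusted p = 0.370), with a 95% interval from -0.08 to 0.94. For Apoc3 the difference was -0.08 with an interval from -0.62 to 0.47, and without S302A_DEN replicate 3 it was 0.18. For Apoa5 it was -0.41 with an interval from -1.01 to 0.19, and it was -0.15 without that library.

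**Figure D2:**
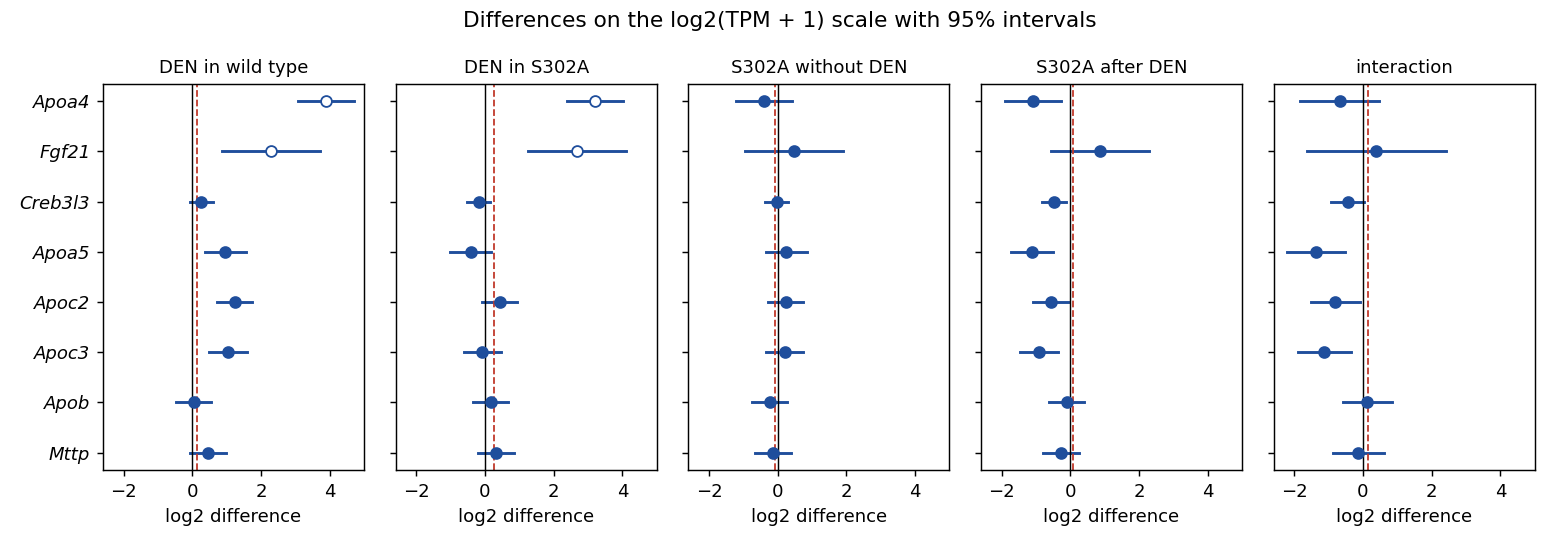
Differences of the 8 genes on the log2(TPM + 1) scale (points) with 95% intervals (bars) in 5 comparisons; open points mark Apoa4 and Fgf21 in the comparisons that chose them, the dashed line is the median of all genes tested (0.13 and 0.27 after DEN), and in the comparison of genotypes after DEN the intervals of Apoa4, Creb3l3, Apoa5, Apoc2 and Apoc3 lie below 0.

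Without DEN, none of the 8 genes passed limma's test between S302A_Ctrl and WT_Ctrl (adjusted p = 1 for each), none had an unadjusted p below 0.05 (1.48% of all genes), and 4 genes of all (0.033%) passed. Fgf21 alone did not overlap, in the higher direction, where 1.69% of all genes did. It had 1.54 to 2.51 TPM in the knock-in and 1 to 1.35 TPM in wild type. The largest interval among the abundant genes was that of Apoa4, from -1.21 to 0.42 on the log2 scale around -0.40, so that a halving of Apoa4 in untreated knock-in liver lay inside it.

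After DEN the knock-in was lower than wild type for 7 of the 8 genes, with a median difference of -0.52 against 0.07 over all genes. Apoa4, Creb3l3, Apoa5, Apoc2 and Apoc3 were lower in all 3 knock-in libraries than in any wild-type library, 5 of 8, against 6.19% of all genes. Each of these 5 had an unadjusted p below 0.05, against 7.83% of all genes, but none passed limma's test, where 46 genes (0.38%) did. The differences were -1.11 ± 0.28 for Apoa5 (adjusted p = 0.136), -0.92 ± 0.25 for Apoc3 (adjusted p = 0.192) and -0.57 ± 0.24 for Apoc2 (adjusted p = 0.525). Mttp stood at -0.27 ± 0.24 and Apob at -0.11 ± 0.23, and both overlapped. They were at -0.55 and -0.33 without S302A_DEN replicate 3. Both this comparison and the treatment comparison in wild type use the WT_DEN libraries. Summed bile duct markers ran from 69.6 to 156 TPM in S302A_DEN and from 24.6 to 43.6 TPM in the other groups, with Krt7, Cftr and Muc1 at the floor in all libraries. Most of each sum was the single gene Spp1, at 59.0, 55.3 and 122 TPM in the S302A_DEN libraries. Spp1, which bile duct cells and injured liver express, was the marker that passed, higher in the knock-in after DEN by 1.80 (adjusted p = 0.0390). That call was lost in 12 of 22 alternatives, among them leaving out any single WT_DEN library (adjusted p = 0.113 to 0.181), any single S302A_Ctrl library (0.0565 to 0.0753), WT_Ctrl replicate 1 or 3 (0.0516 and 0.0687) or S302A_DEN replicate 2 (0.0551), and its adjusted p reached 0.195 with the libraries of the comparison alone. Hepatocyte marker sums were lower in S302A_DEN (72551 to 91099 TPM) than in WT_DEN. The part of these cell types in the differences between genotypes was not tested.

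Without S302A_DEN replicate 3, Creb3l3 passed and 1 of the 8 was called, against 5.89% of all genes. Apoa5 was then at -0.85 (adjusted p = 0.0650) and Apoc3 at -0.66 (adjusted p = 0.0688), smaller than with the library in both cases. With array quality weights 5 of the 8 passed, against 16.5% of all genes. These were Creb3l3 (-0.43), Apoa5 (-0.65), Apoc2 (-0.59), Apoc3 (-0.62) and Mttp (-0.44).

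The dependence of the DEN difference on genotype was tested as an interaction. None of the 8 genes passed limma's test, where 5 genes (0.0413%) did, and 3 of the 8 had an unadjusted p below 0.05, against 5.06% of all genes. These were Apoa5 at -1.37 ± 0.39 (adjusted p = 0.489), Apoc3 at -1.12 ± 0.36 (adjusted p = 0.553) and Apoc2 at -0.80 ± 0.33 (adjusted p = 0.868). The negative sign means a smaller DEN difference in the knock-in. Apoa4 had an interaction of -0.68 ± 0.53 and Fgf21 one of 0.39 ± 0.93, with 95% intervals from -1.83 to 0.47 and from -1.64 to 2.41. They were -0.28 for Apoa4 (adjusted p = 0.847) and -0.58 for Fgf21 (adjusted p = 0.709) without S302A_DEN replicate 3, a change of sign for Fgf21. With array quality weights Apoc3 passed (-0.92, adjusted p = 0.0253), against 4.19% of all genes.

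Ordered by group mean, Apoa4, Creb3l3, Apoa5, Apoc2 and Apoc3 put WT_DEN first and clear of the next group. The share of all genes with that order was not computed, and Apoa4 was chosen by its treatment difference, so this is a description. Apoa4 and Apoc2 put S302A_DEN second, clear of both untreated groups, which overlapped each other. For Creb3l3, Apoa5 and Apoc3 the 3 groups below WT_DEN overlapped their neighbours. Fgf21 put S302A_DEN first (30.7 ± 36.8 TPM, SD, n = 3) and WT_DEN second (10.7 ± 6.15 TPM), which overlapped. Apob and Mttp showed no neighbouring groups in that order that were clear of each other.

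Apoa4, Apoa5 and Apoc3 lie side by side on chromosome 9 with Apoa1, the main apolipoprotein of high-density lipoprotein. Coordinates are those of GENCODE M21 on GRCm38. Apoc3 spans 46232933 to 46235636 on the minus strand, Apoa4 spans 46240696 to 46243459 on the plus strand, and Apoa5 spans 46268633 to 46271919 on the plus strand. The spans of Apoa4, Apoa5 and Mttp overlap those of annotated genes of the opposite strand. Since no strand setting is given, reads from bases that both transcripts share could not be told apart. Whether the overlaps reach into exons was not examined. Taking the 4 genes' TPM together, Apoa4 made up 0.886% to 1.65% in WT_Ctrl and 7.90% to 11.9% in WT_DEN. In the knock-in its share went from 0.462%-1.23% to 4.26%-6.89%.

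Apoa1 had its highest group mean in S302A_DEN, unlike its neighbours. It had 8533, 9672 and 12149.9 TPM in WT_DEN libraries and 15420.0, 14064 and 10149 TPM in those of S302A_DEN, a difference of 0.38 ± 0.24 (limma adjusted p = 0.799), or 0.56 without S302A_DEN replicate 3. Apoc3 per Apoa1 was 0.752 to 1.08 in WT_DEN and 0.341 to 0.404 in S302A_DEN, against 0.535 to 0.613 in WT_Ctrl and 0.608 to 0.714 in S302A_Ctrl. None of these ranges of the DEN groups touched those of the untreated groups. Apoa5 per Apoc3, in contrast, stayed between 0.0731 and 0.124 in all 12 libraries.

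Of 11 measured genes that start between -412.0 kb and 42.3 kb of the start of Apoa4, with Apoc3 and Apoa5 left out, none passed the test after DEN in either genotype. Their median differences were 0.13 in wild type and 0.39 in the knock-in, against 0.13 and 0.27 over all genes. The knock-in median was 0.050 without S302A_DEN replicate 3, against 0 over all genes. Sidt2, at -285.4 kb, had the largest in wild type at 0.77 (adjusted p = 0.255), against 3.89 for Apoa4. Zfp259, 32.4 kb beyond Apoa4, stood at -0.45 and Bud13, 42.3 kb beyond it, at -0.36, also short of the test.

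**Figure D3:**
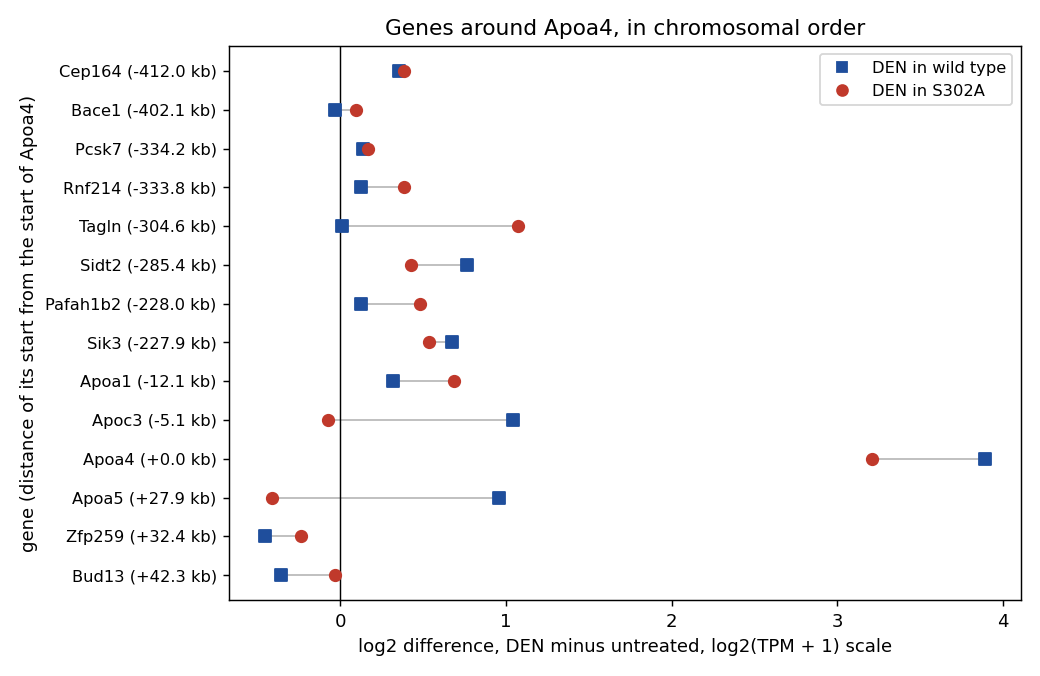
Difference after DEN on the log2(TPM + 1) scale (horizontal axis) for genes around Apoa4 in chromosomal order, with the distance of each start from the start of Apoa4, squares for wild type and circles for the knock-in; Apoa4 stands at 3.89 and 3.21, Apoc3 and Apoa5 near 1 in wild type only, and the highest of the other genes is Tagln at 1.07 in the knock-in.

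Apoc2 lies on chromosome 7, from 19671579 to 19677941 on the minus strand, beside Apoe, Apoc1 and Apoc4. After DEN in wild type these 3 neighbours differed by 0.68 (Apoe, which clears particle remnants), 0.62 (Apoc1) and 0.48 (Apoc4). After DEN the knock-in differed from wild type by -0.61, -0.71 and -0.59. None of these passed the test (adjusted p from 0.356 to 0.562). In the knock-in after DEN the neighbours were between -0.18 and -0.15, where Apoc2 was at 0.43. These became -0.10 (Apoe), 0.0047 (Apoc1), -0.089 (Apoc4) and 0.37 (Apoc2) without S302A_DEN replicate 3. An annotated gene on the same strand spans Apoc2 and reaches beyond it, so the assignment of reads to Apoc2 is uncertain.

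Fgf21 lies on chromosome 7, from 45613886 to 45615490 on the minus strand. Of 11 neighbours listed, Ca11 was not found among the symbols, and only 4 of the others had enough signal for a test. Dbp, a clock-output transcription factor gene 89.6 kb away, fell in the knock-in after DEN by 3.92 on the log2 scale (adjusted p = 0.0398), from 90.9, 32.3 and 74.7 TPM to 1.45, 6.76 and 2.50. Its call was lost in 10 of 22 alternatives, among them leaving out WT_Ctrl replicate 1 (adjusted p = 0.0512), S302A_Ctrl replicate 1, 2 or 3 (0.194, 0.0610 and 0.156), WT_DEN replicate 1, 2 or 3 (0.0501 to 0.0661) or S302A_DEN replicate 1 (0.0929). In wild type it was at -2.68 (adjusted p = 0.262), where WT_Ctrl ran from 5.41 to 62.7 TPM. The hour of collection is not given in the labels. Bcat2, Rasip1 and Sphk2, whose end overlaps that of Dbp on the other strand, did not pass in either genotype, with the largest difference at 0.32 (Sphk2 in the knock-in). That value was 0.051 without S302A_DEN replicate 3, and Rasip1 went from 0.21 to -0.21.

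Among the other apolipoproteins, 10 of 10 tested were higher after DEN in wild type (median 0.57, all genes 0.13) and 6 of 10 in the knock-in (median 0.24, all genes 0.27; 5 of 10 and -0.08 after median-of-ratios scaling; 6 of 10 and 0.20 without S302A_DEN replicate 3, all genes 0). After DEN 7 of 10 were lower in the knock-in than in wild type (median -0.37, all genes 0.07). None passed in any of the 3 comparisons. Apoa2, an abundant protein of high-density lipoprotein, had the smallest p between the DEN groups, at -0.98 ± 0.30 (adjusted p = 0.271), or -0.68 without S302A_DEN replicate 3 (adjusted p = 0.132).

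Of 20 genes of particle assembly and export, 17 were higher after DEN in wild type (median 0.26), against 70.3% of all genes. In the knock-in 17 were higher (median 0.44), against 79.3% of all genes. After median-of-ratios scaling the counts of the list were 12 and 11. The knock-in count was 12 of 20 without S302A_DEN replicate 3 (median 0.14, all genes 0). Apobec1, which encodes the enzyme that edits the Apob transcript, rose in the knock-in by 1.35 ± 0.22 (adjusted p = 0.0208). It had 7.37, 5.29 and 6.70 TPM in S302A_Ctrl libraries and 17.3, 15.2 and 21.4 TPM in those of S302A_DEN, without overlap. The call was lost in 4 of 22 alternatives, with adjusted p up to 0.200. Among these was leaving out any single S302A_Ctrl library (adjusted p = 0.0802 to 0.0848). Dgat2, which makes the triglyceride loaded onto the particle, stood at 234, 256 and 295 TPM in WT_DEN and at 152, 127 and 152 TPM in S302A_DEN. Its difference of -0.85 ± 0.18 passed without S302A_DEN replicate 3 (adjusted p = 0.0154) and not with it (adjusted p = 0.0705).

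Of 17 genes of lipolysis and uptake, 16 were higher after DEN in wild type (median 0.26), against 70.3% of all genes. In the knock-in 12 were higher (median 0.18), against 79.3% of all genes. After median-of-ratios scaling the counts of the list were 12 and 7. In the knock-in 6 of 17 were higher without S302A_DEN replicate 3 (median -0.14). The symbol Gm6484, an older name of Angptl8, rose in wild type by 2.28 ± 0.37 (adjusted p = 0.0390). ANGPTL8 is a feeding-induced liver protein that restrains lipoprotein lipase. Wild-type livers had 85.9, 30.1 and 62.5 TPM untreated and 275, 269 and 261 TPM after DEN. Knock-in livers had 68.0, 131 and 116 TPM untreated and 214, 103 and 123 TPM after DEN. The WT_DEN libraries stood above all others, as for Apoa5 and Apoc3, and the interaction was -1.81 ± 0.53 (adjusted p = 0.489). The call in wild type was lost in 10 of 22 alternatives. Among these were median-of-ratios scaling (adjusted p = 0.0729) and leaving out any single WT_DEN library (0.105 to 0.213). Others were leaving out WT_Ctrl replicate 2 or 3 (0.109 and 0.0895) or S302A_Ctrl replicate 3 (0.0598).

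Other textbook targets of CREBH, outside the set, were higher after DEN for 14 of 16 in wild type (median 0.36) and 10 of 16 in the knock-in (median 0.15; 4 of 16 and -0.16 after median-of-ratios scaling; 8 of 16 and 0.022 without S302A_DEN replicate 3). After DEN 11 of 16 were lower in the knock-in than in wild type (median -0.53, all genes 0.07). None passed in these comparisons.

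CREBH and the fatty acid receptor PPAR alpha act together on Fgf21, and ATF4, the factor of the integrated stress response, acts on it separately. Of 26 PPAR alpha target genes, 25 were higher after DEN in wild type, against 70.3% of all genes (median 0.38, all genes 0.13), none past the test. In the knock-in 8 of 26 were higher and 18 lower, where 79.3% of all genes were higher (median -0.11, all genes 0.27). Between the DEN groups 24 of 26 were lower in the knock-in (median -0.70, all genes 0.07).

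Between the DEN groups 2 PPAR alpha targets passed, both lower in the knock-in, of which Cyp4a10 is described here. Cyp4a10, a fatty acid hydroxylase with near-identical relatives that can share reads, stood at 91.9, 186 and 137 TPM in WT_DEN and at 1.88, 4.09 and 41.6 TPM in S302A_DEN (-3.97 ± 0.75, adjusted p = 0.0477). Its call was lost in 15 of 22 alternatives, and leaving out any library other than S302A_DEN replicate 3 ended it (adjusted p = 0.0565 to 0.205). Without S302A_DEN replicate 3 all 26 were lower in the knock-in (median -0.89, all genes -0.20) and 14 passed, against 5.89% of all genes.

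For the same libraries, Fgf21 stood at 13.3 and 5.84 TPM in S302A_DEN replicates 1 and 2, inside the WT_DEN range of 5.24 to 17.4 TPM. The part of PPAR alpha in the Fgf21 level was not tested. The CREBH and PPAR alpha lists share members, among them Cpt1a and Ppara.

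Of 19 measured ATF4 targets, 15 were higher after DEN in wild type (median 0.23), against 70.3% of all genes. In the knock-in 19 were higher, against 79.3% of all genes (median 0.97, all genes 0.27). Atf5, a stress-induced transcription factor gene, rose in the knock-in by 1.27 ± 0.25 (adjusted p = 0.0431), from 114, 105 and 81.6 TPM to 267, 210.4 and 251 TPM. In wild type Atf5 differed by 1.01, short of the test, with an interaction of 0.26. Wild-type libraries had 126, 96.2 and 77.9 TPM untreated and 273, 185 and 156 TPM after DEN, without overlap. Psph, of serine synthesis, rose in the knock-in by 1.49 ± 0.27 (adjusted p = 0.0332), from 3.08, 3.83 and 3.14 TPM to 8.38, 9.05 and 18.0 TPM. These calls were lost in 10 and 11 of 22 alternatives, each when any single S302A_Ctrl library was left out (adjusted p from 0.0802 to 0.188). Most of the list's shift went with S302A_DEN replicate 3: without it 12 of 18 were higher (median 0.27, all genes 0) and 4 passed, against 2.43% of all genes.

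Read as a list, most of the genotype difference of the ATF4 targets went with the same library. Between the DEN groups all 19 were higher in the knock-in with it (median 0.83, none past the test), and 7 of 18 without it (median -0.02, all genes -0.20). Ddit3, the stress factor CHOP, stood at 33.3 TPM in S302A_DEN replicate 3 against 11.9 and 8.92 in the other S302A_DEN libraries. Trib3, which restrains ATF4 signalling, stood at 25.8 TPM against 2.66 and 2.07. Set against the mean of the other S302A_DEN libraries on the log2(TPM + 1) scale, this library was higher by 1.6 for Ddit3, 3.00 for Trib3 and 2.90 for Fgf21. Over all genes tested the median of that difference was 0.79, and Atf4 itself lay at 0.69, close to that median. The part of the stress response in the Fgf21 value was not tested.

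**Figure D4:**
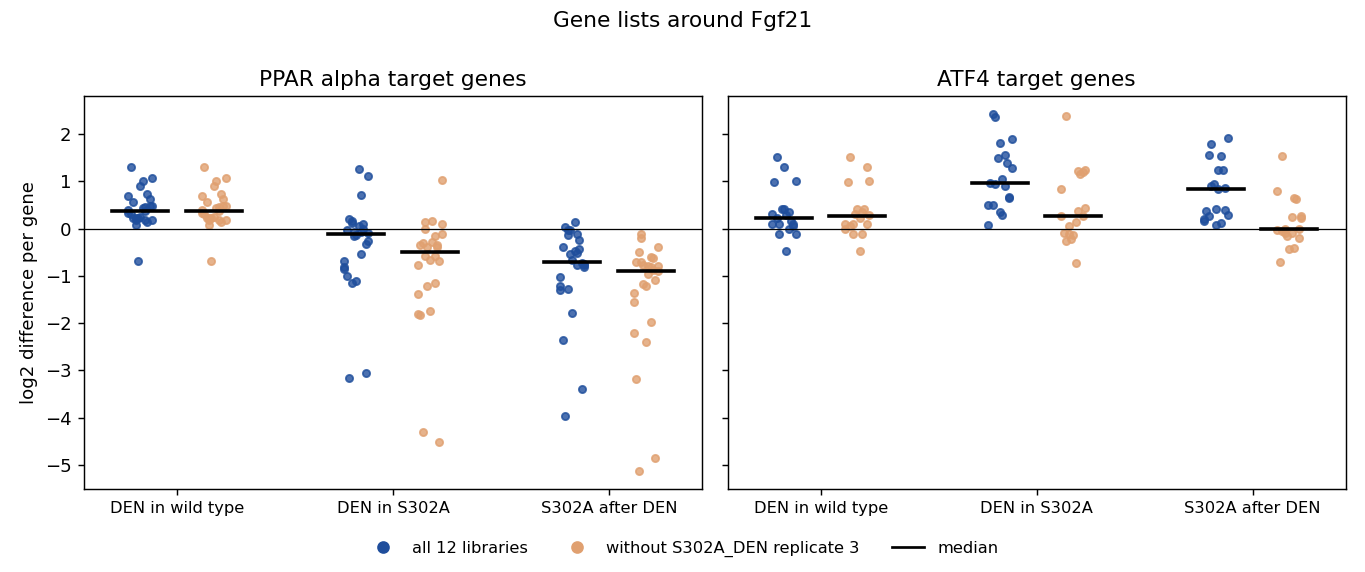
Log2 differences of single genes (points) and their medians (lines) for 26 PPAR alpha targets and 19 ATF4 targets in 3 comparisons, with all 12 libraries (blue) and without S302A_DEN replicate 3 (orange); leaving out that library moves the ATF4 median between the DEN groups from 0.83 to -0.02, and the PPAR alpha median from -0.70 to -0.89.

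Of the fibroblast growth factor receptors, co-receptors, related growth factors and signalling targets listed around FGF21, 12 were measured. Klb, the co-receptor that gives FGF21 its specificity, differed by -0.08 after DEN in wild type and by -0.16 in the knock-in, neither past the test, and the knock-in value was -0.48 without S302A_DEN replicate 3. Fgfr4, the main fibroblast growth factor receptor of hepatocytes, differed by 0.43 and 0.31, also short of it. Fgfr2 fell in the knock-in by 1.24 on the log2 scale (adjusted p = 0.0388), from 17.2, 9.33 and 12.7 TPM to 5.30, 4.50 and 4.67 TPM, and was at -0.73 in wild type (adjusted p = 0.359). That call was lost in 12 of 22 alternatives, with the highest adjusted p on leaving out 1 library at 0.202, without S302A_Ctrl replicate 1. Egr1, an immediate early gene induced by growth factor signals, had 1, 1 and 2.55 TPM in WT_Ctrl libraries and 9.54, 8.96 and 9.93 TPM in those of WT_DEN (2.11 ± 0.39, adjusted p = 0.0728). In wild type it passed without S302A_DEN replicate 3 (adjusted p = 0.00455). Knock-in libraries had 2.36, 1 and 2.49 TPM untreated and 2.74, 2.82 and 9.43 TPM after DEN. That difference was 0.89, short of the test, and 0.40 without S302A_DEN replicate 3.

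Of 17 other transcription factor genes reported to act on Fgf21, Apoa4 or Apoc3, none passed in any treatment or genotype comparison. Ppara stood at 29.9, 42.0 and 51.4 TPM in WT_DEN and at 23.3, 21.6 and 24.2 TPM in S302A_DEN, a difference of -0.78 ± 0.22 (adjusted p = 0.208).

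The genes whose pattern over the 12 libraries was most like that of each leading gene were named by Pearson's r on the log2(TPM + 1) scale, among 7349 genes of at least 5 TPM on average. The points fall into 4 groups that DEN separates, so r is a description. Nearest to Apoa4 were Nfil3, a clock-linked repressor gene (0.940), Epha2, which encodes an ephrin receptor (0.912), Cdkn1a, the p53-induced cell cycle inhibitor (0.905), and Slc45a3 (0.900). Cdip1, Tnfaip8l1, Baiap2, Pfkfb1, Nop16 and Tspan31 followed, down to 0.876. Nfil3 averaged 9.49 TPM in untreated and 37.0 TPM in treated wild type, and 7.72 TPM in untreated and 25.0 TPM in treated knock-in, the order of Apoa4.

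Nearest to Fgf21 were Tfb1m, a mitochondrial transcription factor gene (0.988), Snrpa (0.972), 1110038F14Rik (0.970), Timm8b (0.969), Ruvbl2 (0.969), Rnf113a2 (0.967) and the stress-induced gene Ddit4 (0.965). Srm, Nol12 and Bcl7b completed the 10, down to 0.960. Without S302A_DEN replicate 3 the 10 values ran from 0.916 to 0.983. Tfb1m spanned a far narrower range of levels than Fgf21, from 5.11 TPM on average in WT_Ctrl to 10.6 in S302A_DEN.

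Nearest to Creb3l3 were Ephx2, an epoxide hydrolase gene (0.902), Sardh (0.896), the lipase gene Mgll (0.881), Eci1 (0.873) and Abhd6 (0.870). Clec4g, Cyp2d26, Srd5a1 and Rab43 followed, down to 0.852. Eci1 encodes an enzyme of fatty acid oxidation. Each of these had its highest group mean in WT_DEN, as Creb3l3 did.

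Apob and Mttp kept a narrow ratio to each other. Apob per Mttp was 5.46 to 6.12 in untreated and 3.87 to 4.84 in treated wild type, and 4.95 to 6.15 in untreated and 4.51 to 5.43 in treated knock-in. The wild-type ranges did not overlap and the knock-in ranges did. Apoc3 per Apoc2 was lowest in S302A_DEN replicate 3, at 6.26, against 10.8 to 18.5 in WT_Ctrl and 11.1 to 13.2 in WT_DEN.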

How the data were processed

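The authors deposited TPM per gene symbol, made with kallisto and the mouse build mm10 per the submitters' processing notes. No version or annotation is given in the sources used here. No value lay below 1, which was read as a floor. TPM keeps no depth, so the depth of each library and its counting error are unknown, and small transcripts near the floor are imprecise. Genes above 1 TPM in at least 3 of 12 libraries were kept, since a minimum of exactly 1 TPM, as planned, would have kept every symbol. Values were analysed as log2(TPM + 1) with limma 3.58.1 in R 4.3.3, in 1 model of the 4 groups with a mean-variance trend. Tests were two-sided and adjusted by Benjamini-Hochberg over all 12120 genes, with a threshold of 0.05. The script was tested on simulated data.

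The members and the 19 gene lists were chosen with earlier results of these data known. Named genes were the members, per list and comparison those past the test (up to 4) or otherwise the 2 with the smallest p, neighbours, and the 10 genes most like Apoa4, Fgf21 and Creb3l3. Genes whose values are given only for S302A_DEN replicate 3, such as Trib3, and Klb, Fgfr4, Mbtps1 and Egr1 values beyond that rule, were chosen for their role. Under an older symbol 4 list genes were found, and 1 was not found. Alternatives were other pseudocounts (0.1 and 0.5), no filter (above 1 TPM in any library) or one of 5 TPM, scaling by median ratios or by quantiles, weights per library, fits on a comparison's libraries alone, robust moderation, a replicate block and leaving out each library. Promoter windows came from RefSeq (GRCm38.p6). They were used for 7 genes. Some genes covered by the rule for named genes are not reported here.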

Additional observations from a re-analysis of the deposited data

Results flagged for a closer look

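Creb3l3 lay on opposite sides of the untreated mean after DEN in the 2 genotypes, although neither treatment difference passed limma's test (0.27, adjusted p = 0.733, in wild type and -0.18, adjusted p = 0.523, in the knock-in). All 3 WT_DEN libraries stood above the WT_Ctrl mean of 113 TPM and all 3 S302A_DEN libraries stood below the S302A_Ctrl mean of 110.0 TPM. The interaction was -0.45 ± 0.22 (SE) on the log2(TPM + 1) scale, and limma's test of that difference did not pass (adjusted p = 0.975). Over the alternatives its adjusted p ran from 0.125 to 1. With quantile normalization the wild-type difference was -0.035, so the opposite signs were lost there, and with median-of-ratios scaling the wild-type groups overlapped.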

How the results depend on the processing

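The 6 genes tested after DEN and all 8 tested between genotypes gave 36 results and 784 recomputed values, of which 742 kept both direction and side of the threshold, 13 came to pass it, 0 fell below it and 29 changed sign. Without S302A_DEN replicate 3 the genes of the set that passed were Apoc2 and Apoc3 after DEN in wild type and Creb3l3 between the DEN groups.

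Sign changes with median-of-ratios scaling were Apob after DEN in wild type (-0.14) and in the knock-in (-0.15), Creb3l3 between untreated genotypes (0.057) and the Apob interaction (-0.0067). With quantile normalization they were Creb3l3 (-0.035) and Apob (-0.24) after DEN in wild type, Apob after DEN in the knock-in (-0.071), Creb3l3 between untreated genotypes (0.030) and Apob between the DEN groups (0.022). With array quality weights they were Apoa5 (0.060), Apoc3 (0.23) and Apob (-0.037) after DEN in the knock-in and the Apob interaction (-0.044). The cause was not tested.

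On leaving out 1 library, Apob ranged from -0.074 to 0.13 after DEN in wild type, from -0.054 to 0.32 after DEN in the knock-in, from -0.33 to 0.0067 between the DEN groups and from -0.095 to 0.28 in the interaction. Apoc3 after DEN in the knock-in ranged from -0.24 to 0.18. Fgf21 ranged from -0.10 to 1.62 between the DEN groups and from -0.58 to 1.14 in the interaction, both lowest without S302A_DEN replicate 3. Between untreated genotypes Creb3l3 ranged from -0.066 to 0.018, Apoc2 from -0.070 to 0.41 and Mttp from -0.24 to 0.0069. The Mttp interaction ranged from -0.41 to 0.052.

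Counts of all genes called moved more. With no filter they were 3 and 35 after DEN in wild type and knock-in, 0 between untreated genotypes and 28 between the DEN groups. With the filter of 5 TPM 132 genes passed after DEN in the knock-in. With median-of-ratios scaling 651 passed there, 210 between the DEN groups and 12 in the interaction. With quantile normalization the counts were 33 and 680 after DEN, 188 between the DEN groups and 10 in the interaction. Array quality weights gave 2057 and 1609 after DEN, 1996 between the DEN groups and 508 in the interaction, with 4, 5 and 1 of the members called after DEN in wild type, between the DEN groups and in the interaction. Fits on the libraries of a comparison alone gave 147 and 17 after DEN, 2 between untreated genotypes and 4 between the DEN groups.

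On leaving out 1 library the counts ranged from 1 to 258 and from 16 to 335 after DEN, from 0 to 12 between untreated genotypes, from 6 to 700 between the DEN groups and from 2 to 75 in the interaction. Members called ranged from 0 to 2 after DEN in wild type and from 0 to 1 between the DEN groups. The highest of 258, 700 and 75 came without S302A_DEN replicate 3, and were otherwise 18, 48 and 13.

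With the replicate number as a block 5 genes passed after DEN in wild type (16 without it) and no member was called in any comparison. The numbers were not taken as pairs: same-numbered libraries correlated between -0.187 and 0.282 in their deviations from the group means, 5 of 18 pairs were over 0.1, and 7 of 12 libraries correlated best with their own number. TPM keeps no depth, so the precision of low values such as those of Fgf21 in untreated livers cannot be stated.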
